A study of Mus musculus with 4 samples.

Results

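The 7 genes of cholesterol synthesis and its control considered here, Hmgcs1, Sqle, Fdps, Fdft1, Idi1, Insig1 and Cyp51, were followed through the single-cell transcriptomes of mouse MYCN-driven high-grade gliomas. They were chosen by name from the 21861 features of the count tables, with earlier results of these data known. All 7 were present in the 4 libraries. The comparison asked how oligodendrocyte-like (OL-like) tumor cells stand against normal oligodendrocytes, neuroblast-like (NB-like) tumor cells and the other cells of the same libraries. OL-like tumor cells held fewer transcripts of 6 of the 7 genes than mature oligodendrocytes, with Sqle as the exception, and more Sqle than every vessel and immune class tested. No tumor-free mice were analysed here, so all cells classed as normal came from tumor-bearing mice. The paper describes the source as olfactory bulb or tumor tissue, and how far normal cells came from around the tumor is not known.

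Cholesterol is built from acetyl-CoA through the mevalonate pathway. Hmgcs1 makes HMG-CoA, Idi1 and Fdps assemble isoprene units into farnesyl diphosphate, Fdft1 joins farnesyl units to squalene, Sqle oxidizes squalene, and Cyp51 removes a methyl group from lanosterol. Insig1 holds the SREBP transcription factors, which switch on the genes of the pathway, in the endoplasmic reticulum while sterols are abundant, and it is itself a target of these factors. The blood-brain barrier keeps circulating lipoproteins out, so brain cells make their own cholesterol, and oligodendrocytes are known for high synthesis because myelin is rich in it.

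All 4 mice carried the genotype hGFAP-cre::TP53Fl/Fl::lsl-MYCN, and tumors were taken from mouse 4 and mouse 5 at 43 days (P43) and from mouse 6 and mouse 7 at 70 days (P70), with 1 library per mouse. The hGFAP promoter drives Cre in neural precursor cells, where it deletes Trp53 and switches on a Rosa26 transgene of human MYCN with luciferase, so transgene and deletion are shared by all tumors and both ages. UMI counts (unique molecular identifiers, 1 per captured mRNA molecule) of human MYCN and luciferase served as the reporter of tumor cells. Dead cells had been sorted out and red blood cells lysed. Libraries from P77 and P92 are not analysed here.

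The libraries held 1739 to 3693 barcodes and 13106786 to 40621958 UMIs, and 10975 cells passed the filters, with medians of 1419 UMIs in mouse 4 and 10449 in mouse 7. Clustering without the 7 genes and the related gene lists gave 22 clusters, of which 10 were called tumor clusters from a reporter level of at least 500 CPM (UMIs scaled to a common total per sum of cells). Any pair of libraries shared 1 to 3 barcodes. The sum of 4 Y-linked genes was 225 CPM in mouse 4, labelled female, and 0.64 CPM in mouse 5, labelled male, so the sex labels of both P43 mice go against the data and sexes were not compared.

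OL-like cells were the largest tumor class, with 2135, 237, 424 and 2154 cells in mice 4, 5, 6 and 7. The 10 oligodendrocyte lineage markers by which these clusters were named summed to 5113 to 7603 CPM, with none at 0. Since these markers gave the label, their sums are no separate test of it. Mature oligodendrocytes classed here as normal (MOL) had 62, 58 and 75 cells in mice 4, 5 and 7, and 3 cells in mouse 6, which were too few to be tested. The 8 mature oligodendrocyte markers, by which MOL were named, summed to 35000.0, 29014 and 11381 CPM in MOL. In OL-like cells they summed to 1204 to 2582 CPM, with only Klk6 at 0 in some of these sums. Reporter levels in MOL were 13.8, 25.7 and 502 CPM in mice 4, 5 and 7. The last is above the 500 CPM limit, which the pooled cluster, at 147 CPM, did not reach. Of the MOL of mouse 7, 53 of 75 had a reporter UMI, against 8 of 62 in mouse 4 and 18 of 58 in mouse 5. The paper states that cells targeted by the hGFAP promoter also become oligodendrocytes, and recombination in MOL was not tested. The results are therefore also given below for tumor cells with and MOL without a reporter UMI. NB-like cells numbered 77, 28 and 584 in mice 4, 6 and 7. Those of mouse 4 stood apart, with 9436 CPM of mature oligodendrocyte markers against 26.1 and 12.5 CPM in mice 6 and 7, only 290 CPM of reporter against 2670 and 2425 CPM, and a median of 1031 UMIs, so the label is poorly borne out in that mouse. Oligodendrocyte precursor cells (OPC) had 22 and 112 cells in mice 5 and 7, and astrocyte-like (AC-like) tumor cells 53 and 186 in mice 6 and 7.

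On the GRCm38 (mm10) assembly, GENCODE places Hmgcs1 at chr13:119690379-119708260 and Idi1 at chr13:8885501-8892451, both on the plus strand. Insig1 lies at chr5:28071363-28078662 on the plus strand and Cyp51 at chr5:4081145-4104746 on the minus strand. Sqle occupies chr15:59315077-59331192 on the plus strand, Fdps chr3:89093588-89101959 and Fdft1 chr14:63145150-63179578 on the minus strand. The promoters of Hmgcs1, the gene with the largest difference from MOL, and of Insig1, the feedback gene, are shown from the RefSeq promoter table for the same assembly, upstream of the start and in the direction of transcription, with matches to 4 motifs in capitals. Searched on both strands were TCACNCCAC (the core of a sterol regulatory element), CCAAT (NF-Y box), GGGCGG (Sp1 box) and CACGTG (E-box, the MYC family motif), and no match shared bases with another in the stretches shown.
Hmgcs1 (chr13:119690101-119690350, plus strand): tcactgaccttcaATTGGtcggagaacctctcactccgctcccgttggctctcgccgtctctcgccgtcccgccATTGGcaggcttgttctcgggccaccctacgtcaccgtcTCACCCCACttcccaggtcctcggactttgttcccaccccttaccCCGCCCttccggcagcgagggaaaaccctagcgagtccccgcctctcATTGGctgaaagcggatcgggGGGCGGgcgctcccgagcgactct
Insig1 (chr5:28071162-28071362, plus strand): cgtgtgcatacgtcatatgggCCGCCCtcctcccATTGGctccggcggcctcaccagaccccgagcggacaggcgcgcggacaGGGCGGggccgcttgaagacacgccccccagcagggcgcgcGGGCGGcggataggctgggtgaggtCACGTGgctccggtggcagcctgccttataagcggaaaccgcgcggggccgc

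The sterol regulatory element core was matched once among the members, in Hmgcs1, 137 bases before the start, and 1.24% of all 32841 promoters in the table hold it. Hmgcs1 also had 3 NF-Y boxes and 2 Sp1 boxes, and Insig1 had 1 NF-Y box, 3 Sp1 boxes and the only E-box. Promoters in the table covered 4 of the 7 members, Hmgcs1, Idi1, Insig1 and Cyp51, and all 4 held an NF-Y box and an Sp1 box in the whole window around the start, against 37.42% and 35.67% of all promoters, and 1 of 4 held an E-box against 7.15%. Among 13 other synthesis enzymes in the table, 12 held an NF-Y box, 12 an Sp1 box, 3 an E-box and 0 the sterol element core. A match describes letters only, and promoters of Sqle, Fdps and Fdft1 are not analysed here.

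**Figure D1:**
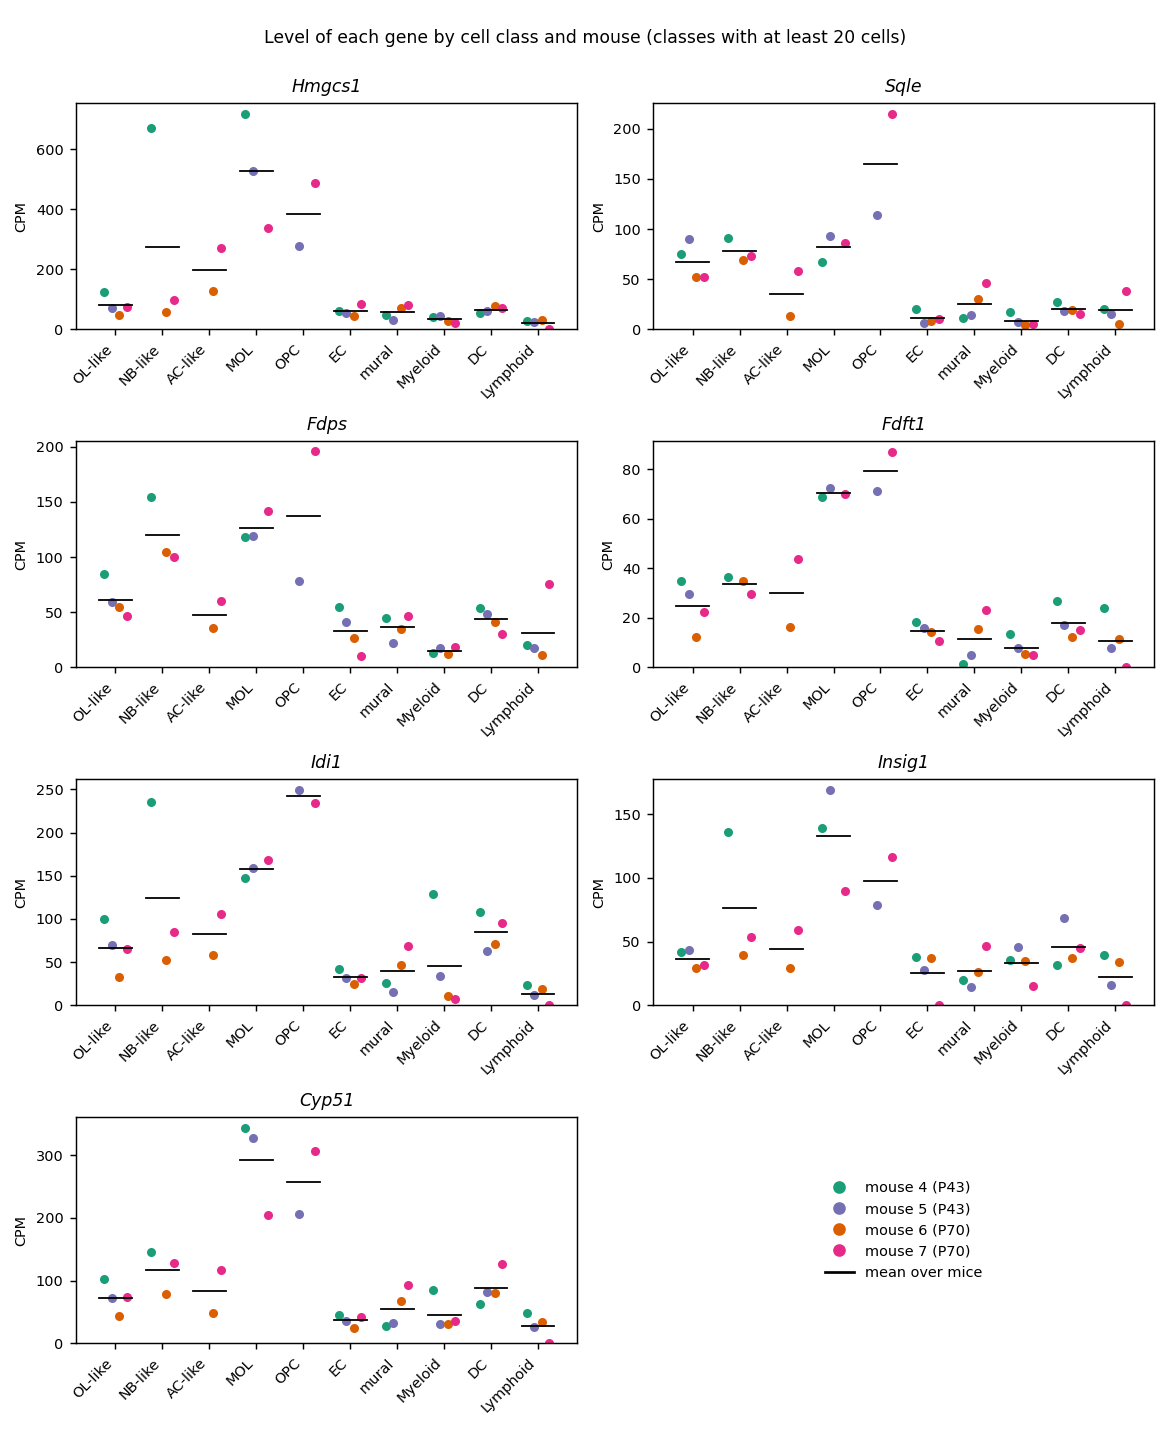
Level of each of the 7 genes (CPM on the y axis) in every cell class (x axis), with 1 point per mouse from the UMI counts summed over its cells of the class, for classes with at least 20 cells in a mouse. MOL points lie above all OL-like points for Hmgcs1, Fdps, Fdft1, Idi1, Insig1 and Cyp51, while the Sqle points of both classes overlap.

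Levels are CPM of the UMIs summed over the cells of a class in a mouse. They come from the 3′ ends of transcripts and are compared between classes, not between genes. Summed over the 7 genes, MOL stood highest, with 1098 to 1603 CPM in 3 mice and a median of 1467, followed by OPC with 1076 and 1643 CPM. NB-like cells had 436, 567 and 1470 CPM, the last in mouse 4, AC-like cells 329 and 713 CPM, and OL-like cells 564, 438, 272 and 367 CPM in mice 4, 5, 6 and 7. Below them came dendritic cells (DC) with a median of 361, mural cells of the vessel wall with 235, endothelial cells (EC) with 202, Myeloid cells with 156, neutrophils with 153 and Lymphoid cells with 134 CPM. Every class overlapped with the next in this order, OPC and NB-like cells only through NB-like cells of mouse 4, so neighbours were not separated beyond the spread between mice, whereas the ranges of MOL and OL-like cells did not overlap.

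Hmgcs1, which acts first among the 7 genes, showed the widest gap of them between OL-like cells and MOL. Its level was 124, 72.7, 48.1 and 75.5 CPM in OL-like cells of mice 4, 5, 6 and 7, and 718, 528 and 338 CPM in MOL of mice 4, 5 and 7. All MOL values lay above all OL-like values. The log2 difference, OL-like minus MOL and here negative where OL-like is lower, was -2.68 ± 0.44 (SE; 6.40-fold; adjusted p = 2.234e-05, edgeR quasi-likelihood test with Benjamini-Hochberg adjustment over 11942 genes). In all, 6 of the 7 genes were lower in OL-like cells by this test and 0 were higher, while 15.0% of all genes tested were lower and 20.4% were higher. Because the 7 genes were chosen with earlier results of these data known, shares over all genes are given as description only. The median log2 difference of the 7 genes was -1.46, beside 0.33 over all genes.

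In the isoprenoid steps, Idi1 and Fdps showed the smallest of the called differences. Idi1 measured 100.0, 70.4, 32.6 and 64.8 CPM in OL-like cells (mice 4, 5, 6 and 7) and 148, 159 and 168 CPM in MOL (mice 4, 5 and 7), and Fdps 84.7, 59.6, 54.4 and 46.6 CPM against 119, 119 and 142 CPM. Neither gene overlapped between the classes, with log2 differences of -1.20 ± 0.43 (adjusted p = 0.03011, edgeR) for Idi1 and -0.997 ± 0.33 (adjusted p = 0.01739) for Fdps.

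At the entry to the sterol branch, the squalene synthase Fdft1 differed and the next enzyme, Sqle, did not pass the test. Fdft1 stood at 34.8, 29.5, 12.3 and 22.3 CPM in OL-like cells and at 68.9, 72.2 and 70.0 CPM in MOL, a log2 difference of -1.46 ± 0.37 (adjusted p = 0.002382, edgeR). Sqle, often counted as a rate-limiting step, had 75.3, 90.4, 52.6 and 52.2 CPM in OL-like cells and 67.6, 93.1 and 86.0 CPM in MOL. These values overlapped, and the difference was -0.20 ± 0.37 (adjusted p = 0.716, edgeR), with the estimates of 21 other settings between -0.51 and 0.12. Sqle was the only one of the 7 genes whose OL-like and MOL values overlapped, so 6 of 7 were lower without overlap, beside 18.2% of all genes tested.

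Further down, the lanosterol demethylase Cyp51 reached 103, 71.8, 43.3 and 73.9 CPM in OL-like cells against 343, 327 and 204 CPM in MOL, a log2 difference of -1.98 ± 0.37 (adjusted p = 9.942e-05, edgeR). The feedback gene Insig1 reached 42.0, 43.4, 28.9 and 31.9 CPM against 139, 169 and 90.0 CPM, a difference of -1.84 ± 0.37 (adjusted p = 0.0002109). For both genes each MOL value was higher than every OL-like value.

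These calls were repeated with tumor cells that held and MOL that lacked a reporter UMI, an alternative added after seeing the data. The summed level of the 7 genes was then 529, 428, 270 and 365 CPM in OL-like cells, and 1466, 1471 and 1640 CPM in the 54, 40 and 22 remaining MOL of mice 4, 5 and 7. The same 6 genes were called lower, with Hmgcs1 at -2.92 ± 0.34 (adjusted p = 4.847e-08, edgeR). Hmgcs1, Insig1 and Cyp51 passed in all 21 alternatives run, Fdft1 in 20, Fdps in 18 and Idi1 in 16, and 4 of 7 genes passed without mouse 5 or without mouse 7. The MOL class itself changed in some alternatives. Of 198 MOL, 115 were still MOL with the limit of 60000 UMIs and 123 without integration. Clustering with the list genes gave no MOL class and is not among the 21. Cells of both classes thinned to 2000 UMIs left 3 of 7. With the size factors of DESeq2 the median over all genes was 0.04 and that of the 7 genes -1.77, and 57.8% of all called genes were lower, against 42.3% in the analysis reported.

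**Figure D2:**
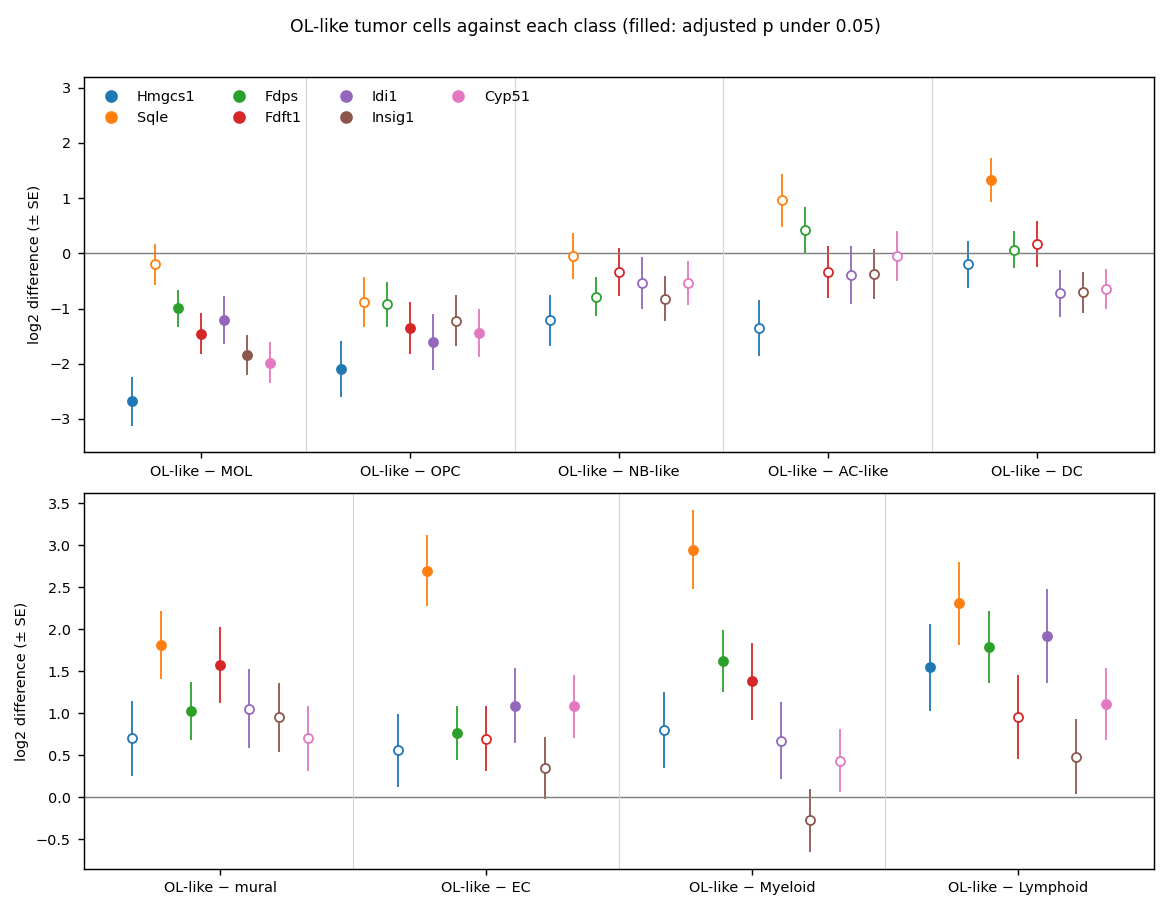
Log2 difference of the 7 genes between OL-like tumor cells and each other class (y axis, OL-like minus the class named on the x axis), with standard errors as bars and filled points where the adjusted p (edgeR) is under 0.05. Against MOL, 6 of 7 genes lie below 0 and pass, against NB-like cells none passes, and Sqle lies above 0 and passes against EC, mural, Myeloid, DC and Lymphoid cells.

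Against OPC, classed here as non-tumor precursor cells of the lineage, 4 of the 7 genes were lower in OL-like cells. Hmgcs1 measured 278 and 488 CPM in OPC of mice 5 and 7, Cyp51 207 and 307, Idi1 249 and 234, and Fdft1 71.3 and 87.0 CPM. The reporter was at 264 and 256 CPM in these OPC, against 1775 to 3073 CPM in OL-like cells of mice 5, 6 and 7 and 829 CPM in those of mouse 4. MOL, EC, mural, Myeloid, DC and Lymphoid cells had 17.1 to 68.6 CPM of reporter in mouse 5 and 59.7 to 502 CPM in mouse 7. The part of tumor cells among the OPC was not tested. These 4 genes were lower in OL-like cells, with log2 differences of -2.10 ± 0.50 for Hmgcs1 (adjusted p = 0.00284, edgeR), -1.60 for Idi1 (0.02347), -1.44 for Cyp51 (0.01743) and -1.35 for Fdft1 (0.03928), where 10.9% of all genes were lower. Insig1 at -1.22, Fdps at -0.92 and Sqle at -0.88 did not pass. The result rests on 2 mice: none of the genes passed without mouse 7 and 1 without mouse 5. It also moved with the scaling, since all 7 passed with DESeq2 size factors or with library size alone, which shifted the median over all genes from 0.24 to -0.11 and the share of lower among called genes from 52.8% to 73.6% and 74.1%.

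Between the 2 tumor states the 7 genes were not separated by the test. In NB-like cells of mice 4, 6 and 7, Hmgcs1 measured 671, 56.6 and 99.1 CPM, Sqle 90.7, 69.7 and 73.0 CPM, and Cyp51 145, 78.4 and 128 CPM. The high Hmgcs1 value is that of mouse 4, whose NB-like cells carried the mature oligodendrocyte markers named above, and their part in it was not tested. None of the 7 genes passed against OL-like cells (edgeR), where 7.44% of all genes were lower and 8.27% higher and 3196 genes had an unadjusted p under 0.05. DESeq2 called 2, Hmgcs1 and Fdps, both lower in OL-like cells. The log2 difference of Hmgcs1 was -1.22 ± 0.46 (adjusted p = 0.0731, edgeR) with mouse 4 and -0.28 ± 0.44 (adjusted p = 0.7657) without it. Fdps, at 154, 105 and 99.7 CPM in NB-like cells against 46.6 to 84.7 CPM in OL-like cells, differed by -0.78 ± 0.35 (adjusted p = 0.1408), and Sqle by -0.04. All 7 estimates were below 0, with a median of -0.55 beside 0.09 over all genes.

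AC-like tumor cells also gave 0 of 7 calls, by edgeR and by DESeq2, where 14.4% of all genes were called in either direction and 3218 genes had an unadjusted p under 0.05. Hmgcs1 was at 127 and 270 CPM in AC-like cells of mice 6 and 7 and differed by -1.36 ± 0.50 (adjusted p = 0.06865, edgeR), a call that 11 of 20 alternatives made. Sqle went the other way in value, at 13.0 and 58.3 CPM in AC-like cells, with a difference of 0.96 (adjusted p = 0.2064).

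Against vessel and immune cells Sqle was the member that stood out. Its level in EC was 20.4, 6.12, 8.38 and 10.6 CPM in mice 4, 5, 6 and 7, in Myeloid cells (microglia and macrophages) 17.8, 7.63, 4.19 and 5.19 CPM, and in DC 15.1 to 27.0 CPM. No OL-like value, at 52.2 CPM or more, was as low as any of these. All 7 genes together held 18 UMIs in EC of mouse 7, and 75 and 42 UMIs in Myeloid cells of mice 4 and 7. The Sqle values of these sums therefore rest on few UMIs. Sqle was higher in OL-like cells by 2.70 ± 0.42 on the log2 scale against EC (adjusted p = 3.053e-06, edgeR), by 2.94 ± 0.47 against Myeloid cells (3.205e-06), by 2.31 against Lymphoid cells, by 1.81 against mural cells (0.0003968) and by 1.34 ± 0.40 against DC (0.005299). It passed in 20 of 20 alternatives against EC, mural, Myeloid and Lymphoid cells each, and in 18 of 20 against DC. In mural cells the Sqle levels, given below by age, were higher at P70 and came close to those of OL-like cells in mouse 7. The change of Sqle with age differed between OL-like and mural cells (-2.23, adjusted p = 0.0392, edgeR interaction term), so the mural difference averages over unlike ages.

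The other genes passed in some of these comparisons. Against EC, 4 of 7 were higher in OL-like cells, the others being Idi1 (1.09), Cyp51 (1.08) and Fdps (0.77), where 31.0% of all genes were higher. Fdft1 (1.58) and Fdps (1.03) joined Sqle against mural cells, 3 of 7 beside 28.7% of all genes, and Fdps (1.63) and Fdft1 (1.38) joined it against Myeloid cells, 3 of 7 beside 34.5%. Against DC, Sqle alone passed, 1 of 7 beside 32.7%, and Lymphoid cells gave 5 of 7 beside 29.5%, with Sqle, Idi1 (1.92), Fdps (1.79), Hmgcs1 (1.55) and Cyp51 (1.11). None of the 7 was lower in OL-like cells against these 5 classes, although some alternatives called a member lower against DC: Cyp51 when thinned, without integration or without mouse 4, Idi1 with 2 classes in the fit and Insig1 with mitochondrial shares under 10%. The count of 1 of 7 against DC is below the share over all genes, and the median of the 7 genes against DC, -0.20, turned to 0.14 with library size alone.

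Other genes of sterol metabolism were taken from lists given here by counts. Of 15 further synthesis enzymes, 14 could be tested against MOL, where 15.0% of all genes tested were lower and 20.4% higher. Of these 14, 5 were lower in OL-like cells and 0 higher, with a list median of -0.76. The lower enzymes were Sc5d (-2.25 ± 0.30, adjusted p = 1.696e-06, edgeR) and Msmo1 (-2.08, 2.598e-05), which act after lanosterol, with Hsd17b7 (-1.55), the lanosterol synthase Lss (-1.24) and Dhcr7 (-1.06), which makes cholesterol in the last step of one branch. Hsd17b7 rests on mouse 7, whose MOL mostly held a reporter UMI: it had 30.3, 30.6 and 382 CPM in MOL of mice 4, 5 and 7 and 20.4 to 41.0 CPM in OL-like cells, and without mouse 7 the difference was -0.17 (adjusted p = 0.8351, edgeR). Lss did not pass without mouse 4, 5 or 7, nor Dhcr7 without mouse 4 or mouse 5, while Sc5d and Msmo1 passed without any 1 mouse. Over all lists, 28 genes passed against MOL, and 22, 16, 28 and 25 of them still passed without mouse 4, 5, 6 or 7. Among 6 tested genes of branches that leave farnesyl diphosphate, Pdss1, of coenzyme Q synthesis, was higher (2.05) and 0 were lower, with Ggps1, which makes the longer geranylgeranyl chain, at -0.45 (adjusted p = 0.2169). Pdss1 did not pass without mouse 5.

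Of 10 tested genes of sterol control, 3 were lower in OL-like cells than in MOL, namely Srebf1 (-1.41), which encodes the SREBP of fatty acid synthesis, Insig2 (-1.25), the relative of Insig1, and Nr1h2 (-1.19), an LXR receptor, and the protease gene Mbtps2 was higher (1.33). None of these 4 control genes passed without mouse 5. Over all genes tested against MOL, 15.0% were lower and 20.4% higher. Srebf2, which encodes the SREBP of cholesterol synthesis, did not pass at -0.58 (adjusted p = 0.1048, edgeR). All 5 tested genes of the efflux list passed, 4 of them lower: the transporter genes Abcg1 (-4.65, with mean levels of 3.52 and 92.4 CPM) and Abca1 (-2.33), the apolipoprotein gene Apoe (-4.05, 107 and 1147 CPM) and the sterol hydroxylase Cyp27a1 (-2.34). Soat1, which esterifies cholesterol for storage, was higher (1.35). Of 8 tested uptake genes, 4 were lower, Vldlr (-1.98), Npc1 (-1.81), Lipa (-1.13) and Npc2 (-1.02), and 2 were higher, Lrp8 (2.62) and Scarb1 (2.44). Of 11 fatty acid genes, 5 were lower, led by the desaturases Scd2 (-3.15, 344 and 3595 CPM) and Scd1 (-2.93), and 2 were higher, Fads2 (2.56) and Fads1 (1.16). Soat1, Npc2, Lrp8 and Fads1 did not pass without mouse 5 either. Fasn, the fatty acid synthase, did not pass at -0.31 (adjusted p = 0.4993, edgeR).

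Against NB-like cells 11 genes of the lists passed, in a comparison where 7.44% of all genes tested were lower and 8.27% higher. Of the 14 tested synthesis enzymes Ebp alone passed, higher in OL-like cells (1.32, adjusted p = 0.006232, edgeR), and none of the 10 control genes passed. The branch list, with 6 tested genes, had Fnta (1.95) and Fntb (1.41), both subunits of farnesyltransferase, higher. The uptake list, with 8 tested genes, had Lipa (1.89), Npc1 (1.32) and Npc2 (0.996) higher. Of these, Npc1 and Npc2 move cholesterol out of lysosomes. The efflux list, with 5 tested genes, had Cyp27a1 (3.67), Apoe (2.37) and Soat1 (2.01) higher and Abcg1 (-2.26) lower. The fatty acid list, with 11 tested genes, had Fads1 (1.35) higher. Of these 11 genes, 8, 8, 7 and 5 still passed without mouse 4, 5, 6 or 7, and Cyp27a1 without mouse 7 was at 1.68 (adjusted p = 0.5764, edgeR). Among these fits Npc1 and Npc2 passed only without mouse 4, and Fntb passed in none.

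**Figure D3:**
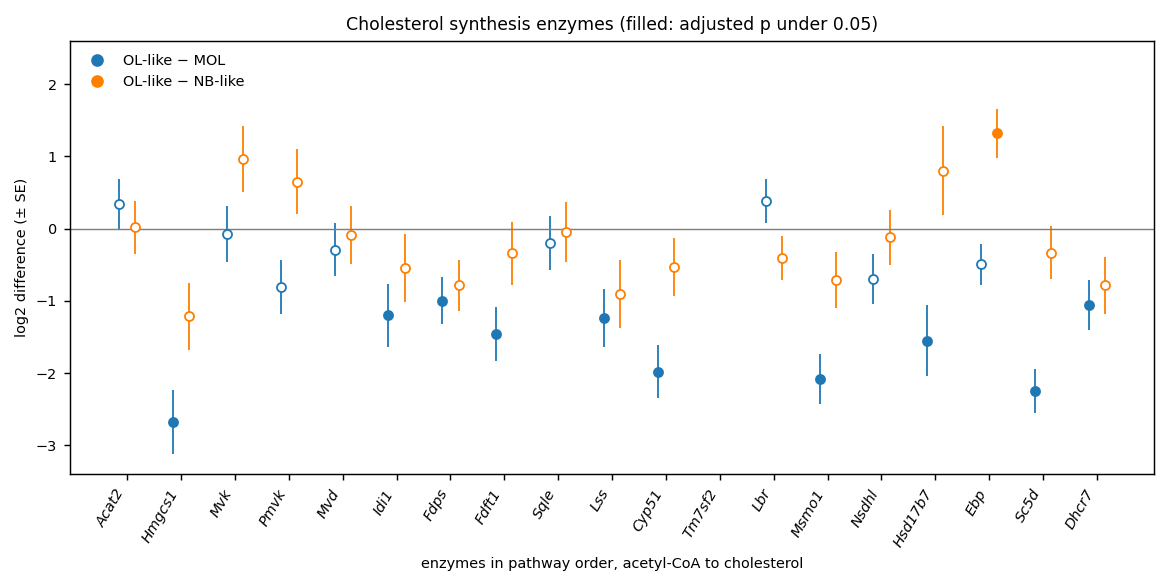
Log2 differences (y axis), OL-like minus MOL and OL-like minus NB-like, of the 6 synthesis enzymes among the 7 genes and of tested enzymes of the synthesis list in pathway order (x axis), with standard errors as bars and filled points where the adjusted p (edgeR) is under 0.05. Against MOL the points of Hmgcs1, Cyp51, Sc5d and Msmo1 lie farthest below 0 and that of Sqle near 0. Against NB-like cells, including those of mouse 4, only Ebp passes.

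Within OL-like cells the 7 genes varied by cluster and mouse. Its 6 clusters were numbered 0, 3, 4, 6, 7 and 15, and the summed level of the 7 genes was 213 to 621 CPM in every cluster and mouse shown except cluster 6 of mouse 4, which reached 998 CPM. Those 380 cells had 15320 CPM of mature oligodendrocyte markers, a median of 912 UMIs and 336 CPM of reporter, below the 500 CPM limit that the pooled cluster met. In mice 6 and 7 the same cluster had 381 and 464 CPM of the 7 genes with 3504 and 4450 CPM of these markers. The part of normal oligodendrocytes or their free RNA in this cluster was not tested. Without cluster 6, OL-like cells had 522, 416, 257 and 357 CPM of the 7 genes, and the same count of 6 of 7 genes passed against MOL.

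**Figure D4:**
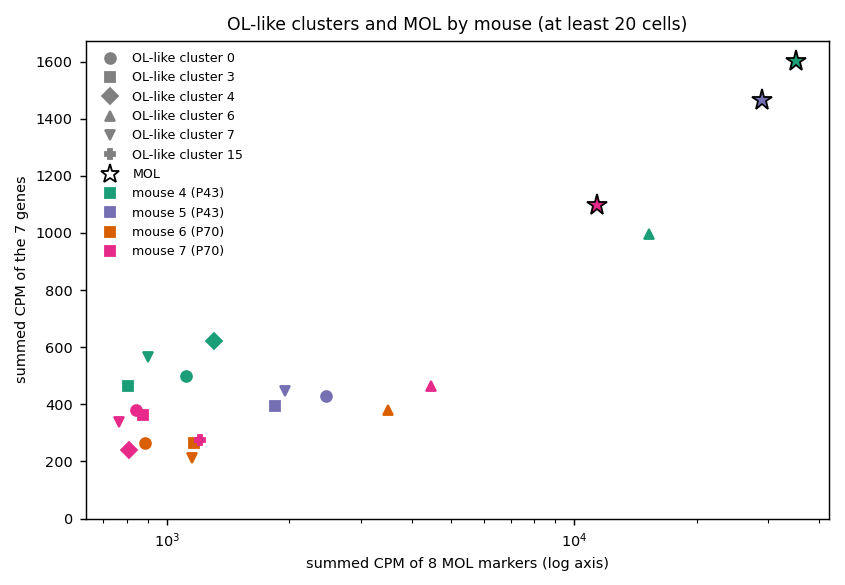
Summed level of the 7 genes (y axis, CPM) against the summed level of the 8 mature oligodendrocyte markers (x axis, CPM, log scale) for each OL-like cluster in each mouse and for MOL, 1 point per cluster or class and mouse. Cluster 6 of mouse 4, at 998 CPM, lies above the other OL-like points and below the MOL points on the y axis, and on the x axis, at 15320 CPM, past the MOL point of mouse 7 at 11381 CPM.

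Cycling and transgene level within OL-like cells were examined with cells thinned to 2000 UMIs. Cycling cells, with at least 2 of 8 cell cycle genes, made up 49.35%, 40.99%, 45.64% and 39.09% of the 772, 222, 344 and 2131 OL-like cells with at least 2000 UMIs in mice 4, 5, 6 and 7, and 33.51%, 23.79%, 29.15% and 27.67% when thinned to 1000 UMIs. Hmgcs1 was lower in them, at 84.0, 27.5, 28.7 and 67.8 CPM against 157, 91.6, 72.2 and 85.5 CPM in the other OL-like cells, with a lower value in each of the 4 mice and a log2 difference of -0.73 ± 0.17 (adjusted p = 0.003559, edgeR). Insig1 was at 30.2, 49.5, 35.0 and 19.2 CPM against 53.7, 42.0, 37.4 and 38.5 CPM, lower in 3 of 4 mice, with a difference of -0.70 ± 0.23 (adjusted p = 0.04924). These were 2 of 7 genes, where 5.11% of all genes tested were lower. Mature oligodendrocyte markers moved with this split, at 826, 2050, 968 and 934 CPM in cycling cells against 3490, 3760, 1709 and 1614 CPM in the others. Without cluster 6, the cluster richest in them, 0 of 7 genes passed, with Hmgcs1 at -0.33 ± 0.16 (adjusted p = 0.2475, edgeR) and Insig1 at -0.51 ± 0.24 (adjusted p = 0.2278), an alternative added after seeing the data. Hmgcs1 passed in the 6 other alternatives and Insig1 in 2 of them. The comparison with MOL held without cycling cells, with 6 of 7 genes lower.

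Cells with more reporter UMIs than the median of their mouse had less Idi1, at 68.4, 64.4, 25.6 and 56.0 CPM against 110, 99.2, 26.6 and 77.3 CPM in the other OL-like cells. The values were lower in each of the 4 mice, with almost no gap in mouse 6, and the log2 difference was -0.55 ± 0.16 (adjusted p = 0.04141, edgeR). This was 1 of 7 genes, where 2.32% of all genes were lower, and it passed in only 1 of 6 alternatives. Mature oligodendrocyte markers were also lower in value in reporter-high cells, at 1223, 1881, 1189 and 885 CPM against 2711, 4041, 1521 and 1634 CPM, and their part in the result was not tested.

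With age, none of the 7 genes passed in OL-like cells, and neither did any other of 11755 genes (0.00%; 523 genes had an unadjusted p under 0.05 and DESeq2 called 46). All 7 estimates, P70 minus P43, were below 0 on the log2 scale, from -0.93 for Fdft1 to -0.53 for Insig1, beside a median of 0.00 over all genes. For Sqle the mice did not overlap, with 75.3 and 90.4 CPM at P43 and 52.6 and 52.2 CPM at P70. The ages did not overlap for Fdps, Fdft1, Idi1 and Insig1 either. For Hmgcs1 mouse 7 at 75.5 CPM lay above mouse 5 at 72.7 CPM, and for Cyp51 mouse 7 at 73.9 CPM lay above mouse 5 at 71.8 CPM. The share of all genes without overlap between the ages was not counted in OL-like cells, so these values are description only. In EC, 0 of 7 genes passed (7.72% of all genes called), in Myeloid cells 0 of 4 tested (0.732%), in DC 0 of 5 (0.685%) and in Lymphoid cells 0 of 3 (0.00%), with 1751, 716, 647 and 529 genes at an unadjusted p under 0.05 in these 4 classes by edgeR, the only tool run there.

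In mural cells 5 of the 7 genes were higher at P70 than at P43, a count that depended on single mice. Cyp51 measured 28.0 and 32.2 CPM in mice 4 and 5 (P43) and 67.8 and 92.4 CPM in mice 6 and 7 (P70), Idi1 26.4 and 15.6 against 47.0 and 69.3, Hmgcs1 46.7 and 32.2 against 71.4 and 80.8, Sqle 10.9 and 14.6 against 29.8 and 46.2, and Fdft1 1.56 and 5.20 against 15.4 and 23.1 CPM. All 7 genes together held 115, 131, 323 and 35 UMIs in mural cells of mice 4, 5, 6 and 7. The values of single genes, above all Fdft1, therefore rest on few UMIs. The ages did not overlap for any of these 5 genes or for Insig1, 6 of 7 where 18.2% of all genes tested were higher without overlap. The 5 genes were called higher, with log2 differences of 1.39 for Cyp51 (adjusted p = 0.003194, edgeR), 1.47 for Idi1 (0.01284), 1.09 for Hmgcs1 (0.01421), 1.44 for Sqle (0.03102) and 2.23 for Fdft1 (0.03551), where 10.4% of all genes were higher. Mural cells of mouse 7 numbered 36, and leaving out mice 4, 5, 6 and 7 in turn left 1, 1, 0 and 5 calls. The change with age differed between OL-like and mural cells for the same 5 genes by an interaction term (1.90% of all genes lower), with Idi1 at -2.62 (adjusted p = 0.007734, edgeR), Cyp51 at -2.22 (0.019), Fdft1 at -3.56 (0.02769), Hmgcs1 at -1.90 (0.037) and Sqle at -2.23 (0.0392). Against EC, Myeloid, DC and Lymphoid cells this term called 0 of 7 genes each, where 14, 30, 6 and 18 of all genes were called. It was not rerun without single mice. Levels of the reporter in mural cells were 59.1 and 68.6 CPM at P43 and 153 and 196 CPM at P70, and its part in the change was not tested.

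Per cell and at a fixed depth, MOL again held more of the 7 genes than OL-like cells. With each cell thinned to 2000 UMIs, OL-like cells held a UMI of 0.975, 0.788, 0.494 and 0.680 of the 7 genes on average in mice 4, 5, 6 and 7, and MOL 1.82, 1.81 and 1.51 in mice 4, 5 and 7. The means of MOL lay above those of OL-like cells in each mouse, by 0.899 on average. NB-like cells of mice 6 and 7 had 0.900 and 0.991, OPC of mouse 7 had 2.21, above every MOL mean, DC had 0.538 to 0.740, above OL-like cells in mice 6 and 7, and Myeloid cells had 0.230 to 0.312. By CPM, too, OPC of mouse 7 (1643 CPM) stood above every tested MOL sum. DC likewise stood above OL-like cells by CPM in mouse 6 (339 against 272 CPM) and mouse 7 (397 against 367 CPM). Thinning left out 1363 of 2135 OL-like cells of mouse 4, which had fewer UMIs.

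Hmgcs1 gave the widest gap in shares of cells. A UMI of Hmgcs1 was found in 19.2% of OL-like cells of mouse 4 (95% exact binomial interval 16.5 to 22.1%), in 11.3%, 9.01% and 14.0% in mice 5, 6 and 7, and in 59.7% (46.5 to 72.0%), 58.6% and 36.6% (25.5 to 48.9%) of MOL in mice 4, 5 and 7. Intervals cover counting error only. Myeloid cells, given for comparison, had 2.78 to 6.74%, and every OL-like share lay above this range. Free RNA was not measured, and its part in these shares was not tested. Sqle, by contrast, was found in 9.01 to 15.8% of OL-like cells and 9.68 to 15.5% of MOL, and the ranges of both classes overlapped.

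**Figure D5:**
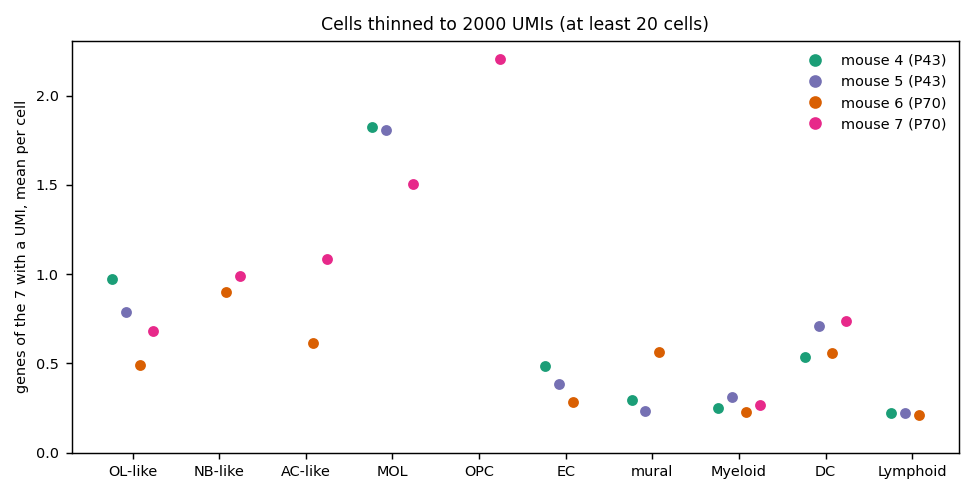
Mean number of the 7 genes with at least 1 UMI per cell (y axis), with every cell thinned to 2000 UMIs, by cell class (x axis), 1 point per mouse with at least 20 such cells. MOL points lie between 1.51 and 1.82 and OL-like points between 0.494 and 0.975, with no overlap.

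Across the 36 sums of class and mouse, 9960 genes, including genes of the lists, were ranked by how closely their log2 levels followed the mean log2 level of the 7 genes, each centred. Outside the lists the closest were Abhd17b (Pearson r = 0.859), Usp5 (0.854), Gphn (0.842), Cdk5 (0.840) and Ss18l2 (0.837). Of the list genes, Msmo1 (0.888), Scd2 (0.876) and Mvd (0.858) had like values. The sums share mice, libraries and depth and include several classes of each mouse, so these coefficients describe a pattern over classes and carry no test.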

How the data were processed

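Single-cell suspensions of 4 tumors, made with papain and DNase, were sequenced with 10x Genomics 3′ v3.1 chemistry. The authors aligned the reads to mm10 with added human MYCN and luciferase sequences (Cell Ranger 6.0.2 per the labels) and deposited UMI counts as a matrix of genes by barcodes, which are not normalized. The counts are of transcript 3′ ends, so they are not divided by gene length.

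Genes seen in at least 3 cells, and cells with at least 200 genes, no more than 40000 UMIs and a mitochondrial share under 25% entered the clustering (Seurat 5.3.0, with the mice integrated by anchors, 30 principal components, 2000 variable genes and resolution 0.5). Doublets were treated by the UMI limit alone. The list genes, 67 in number, were left out of clustering. A non-tumor class was named when at least 3 markers of its list were raised at least 2-fold, and 108 cells remained unassigned. Classes were rebuilt here from markers and may differ from the authors' names.

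UMI counts were summed per mouse and class with at least 20 cells and tested with edgeR 4.0.16 (TMM, filterByExpr, quasi-likelihood, mouse as a block, all classes in 1 fit, Benjamini-Hochberg adjustment over all genes, threshold 0.05). The block pairs classes of the same animal. Age was tested over 2 mice per age, without a block. DESeq2 1.42.0, other scalings and filters, thinning to a fixed depth, other clusterings and leaving out each mouse were alternatives, and 5 alternatives were added after seeing the data. In simulated data, 100 genes were changed 2-fold and 100 were changed 4-fold. The test against MOL recovered 10% of 2-fold and 60% of 4-fold changes, and that against Myeloid cells 13% and 71%. Of unchanged genes, 0.0255% and 0.0596% were called. In the data, 4228 genes were called against MOL and 7061 against Myeloid cells. The adjustment is less strict with more calls, so the simulated rates do not carry over to the data. A gene that did not pass may still differ. Positions came from GENCODE vM21 (GRCm38) and promoters from RefSeq.

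The members and gene lists were chosen with earlier results of these data known. Named outside the members were Srebf2, Insig2, Apoe, Ggps1 and Fasn, the largest rise and fall in each list against MOL and NB-like cells, and the 10 genes with the most similar pattern, of which 5 are given. Other called list genes were named after their values were seen. A few genes of the rule for named genes are not reported here.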

Additional observations from a re-analysis of the deposited data

Results flagged for a closer look

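In groups of 4 mice, 3 values stood apart from the other mice by Dixon's test at its 95% limit, and chance alone gives about 1 such group in 20. The groups were each of the 7 genes in OL-like, EC, mural, Myeloid, DC and Lymphoid cells, with mice of both ages together. Cyp51 in Myeloid cells of mouse 4 was at 84.65 CPM. Hmgcs1 in Lymphoid cells of mouse 7 was at 0.00 CPM and Fdps in the same cells at 75.83 CPM, in a sum of only 23 cells.

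The change with age differed between OL-like and mural cells for 5 genes by the interaction term (edgeR). The log2 change in OL-like cells minus that in mural cells was -3.56 for Fdft1, -2.62 for Idi1, -2.23 for Sqle, -2.22 for Cyp51 and -1.90 for Hmgcs1. Against EC, Myeloid, DC and Lymphoid cells the interaction term called 0 of 7 genes each, and it was not rerun without single mice. In OL-like cells by themselves 0 of 7 genes passed with age (edgeR, where 523 of all genes had an unadjusted p under 0.05 and DESeq2 called 46). In mural cells 5 passed, with only 36 cells and 35 UMIs of the 7 genes together in mouse 7.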

How the results depend on the processing

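Counts are genes of the 7 that passed. Against MOL, 6 passed, 3 when thinned to 2000 UMIs, 5 with no replicate block (mouse) and 4 to 6 without 1 mouse, while clustering with the list genes gave no MOL class and so no value. Against NB-like cells 0 passed, 1 with DESeq2 size factors, library size only, mitochondrial shares under 10% or without the cluster with most MOL markers, 2 with DESeq2, and 0 to 1 without 1 mouse. Against OPC 4 passed, 7 with either other scaling or only 2 classes in the fit, 2 with no replicate block, 1 when thinned, and 0 to 4 without 1 mouse. Against AC-like cells 0 passed and 1 with either other scaling, 2 classes, thinning, mitochondrial shares under 10%, resolution 1.0, no integration, reporter-positive tumor cells or without the cluster with most MOL markers, and 0 to 1 without 1 mouse. Against EC 4 passed, 2 with either other scaling, DESeq2, no replicate block, 60000 UMIs, mitochondrial shares under 10%, no integration or without that cluster, and 1 to 3 without 1 mouse. Against mural cells 3 passed, 5 when thinned, with 60000 UMIs or with OL-like cells not cycling, 6 when clustered with the list genes, and 1 to 7 without 1 mouse. Against Myeloid cells 3 passed, 5 with library size only, 6 with no integration, and 2 to 4 without 1 mouse. Against DC 1 passed, higher, and 2 with 2 classes, mitochondrial shares under 10%, no integration or without mouse 4, the second of them lower. Without 1 mouse 0 to 2 passed, and when thinned 1 passed, lower, with Sqle lost. Against Lymphoid cells 5 passed, 2 with no integration, and 2 to 5 without 1 mouse. In cycling cells 2 passed, 1 with 3 of 8 genes or 1000 UMIs, 0 without the cluster with most MOL markers, and 1 to 2 without 1 mouse. In reporter-high cells 1 passed, 0 with the highest and lowest cells split more strictly or 1000 UMIs, and 0 to 1 without 1 mouse. For mural cells with age, 0 to 5 passed without 1 mouse. The MOL excess of genes per cell, 0.899 at 2000 UMIs, was 0.664 at 1000 and 1.68 unthinned. Apoe against Lymphoid cells turned from negative to 0.11 when thinned and 1.25 with mitochondrial shares under 10%. The causes were not tested. No member changed direction among called values in these runs.

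Other scalings moved the median of all genes by over 0.1 in several comparisons, and the lower share of called genes moved from 53.8% to 71.4% or 65.8% against AC-like cells, from 44.6% to 55.9% against mural cells, and with library size only from 41.7% to 31.3% against Myeloid cells and from 42.0% to 31.7% against DC. Depth limits low genes in small sums, such as EC (94093 UMIs), mural (86610) and Lymphoid (26376) cells of mouse 7, and in MOL and OPC of 22 to 112 cells. Per cell, mouse 4 had the lowest depth, with a median of 1419 UMIs per kept cell.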
